A study of Mus musculus with 24 samples.

Results

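The genes described here are 10 genes of the contractile apparatus of smooth muscle cells and myofibroblasts, *Acta2*, *Tagln*, *Cnn1*, *Myl9*, *Tpm1*, *Tpm2*, *Actg2*, *Des*, *Myh11* and *Lmod1*, taken by name from a table of 55471 genes. RNA-seq was performed on 3T3 MEFs, an immortalized line of mouse embryonic fibroblasts, in 8 groups of 3 libraries, 24 in all. They came from 4 kinds of cell, each untreated or given IL-1β for 6 hours: the wild type, *Lkb1*-/- cells, and the clones A1 and A2 of *Lkb1*-/-/*Crtc2*-/- cells. Wild-type and *Lkb1*-/- cells are separate lines, and both clones were grown from single *Lkb1*-/- cells edited with CRISPR/Cas9 guides against the first exon of *Crtc2*, so every double-knockout library also lacks *Lkb1*. Differences between the lines, or between single-cell clones, and effects of the deleted genes cannot be told apart in these comparisons. The labels do not say whether the 3 libraries of a group came from separate cultures, so that p-values measure the spread between these libraries, which may be technical. Each library held between 38842901 and 48594394 counts on genes, and 9 of the 10 contractile genes passed the filter on low counts; *Myh11* did not.

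Contractile fibroblasts, or myofibroblasts, assemble actin, myosin and tropomyosin into stress fibers that pull on their surroundings. Many genes of this program are switched on by serum response factor, SRF, which binds a short element called the CArG box together with coactivators of the myocardin family, and TGF-β raises them in fibroblasts. LKB1 is the kinase that activates AMPK and the salt-inducible kinases, which in turn hold CRTC2, a coactivator of CREB, in the cytoplasm. The comparisons ask how the contractile genes stand in cells without LKB1, in cells without both LKB1 and CRTC2, and after the inflammatory cytokine IL-1β.

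Promoter sequence was looked up because the CArG box is the element through which SRF binds genes of this kind. RefSeq promoters of build GRCm38.p6 were on hand for 7 of the 10 genes, and *Tagln*, *Actg2* and *Myh11* had no entry. Both strands of the 250 bases before the start were searched for the CArG box, which 1.47% of 32851 promoters of the same length held, and for a CArG-like form with a single G or C among its inner letters, which 7.24% held and which was added after the sequences were seen. The windows of *Acta2* (chr19:34255374-34255623, minus strand) and *Myl9* (chr2:156775214-156775463, plus strand) are shown 5′ to 3′, since these alone among the 7 held a match to either form. Whether a match went with the change of a gene was not tested. Capitals mark the matches.
*Acta2*: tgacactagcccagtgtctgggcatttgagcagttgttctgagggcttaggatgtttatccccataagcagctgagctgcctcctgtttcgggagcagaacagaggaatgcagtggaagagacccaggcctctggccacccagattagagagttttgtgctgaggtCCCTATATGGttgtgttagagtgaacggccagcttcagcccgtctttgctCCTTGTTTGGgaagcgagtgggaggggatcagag
*Myl9*: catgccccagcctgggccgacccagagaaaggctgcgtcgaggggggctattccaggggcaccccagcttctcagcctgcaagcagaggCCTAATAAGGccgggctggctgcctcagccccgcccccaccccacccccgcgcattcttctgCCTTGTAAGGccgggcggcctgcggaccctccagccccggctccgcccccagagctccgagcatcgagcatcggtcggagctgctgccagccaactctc
In *Acta2*, both matches were of the CArG-like form, and lay 84 to 75 and 34 to 25 bases before the start. *Myl9* held a CArG box 161 to 152 bases before the start, at chr2:156775303-156775312, and a CArG-like match 99 to 90 bases before it. The CRE letters TGACGTCA, the full element that CREB binds, were in none of the 7 windows and in 1.55% of all promoters, and the half-site TGACG was in *Tpm1* alone of the 7, against 17.8% of all promoters. The letters CATTCC, the MCAT element that TEAD factors bind, were in *Acta2*, *Lmod1* and *Tpm1*, against 12.6% of all promoters. A match describes letters only, and no binding was measured in these libraries.

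In wild-type MEFs the contractile genes differed widely in level. Per exon length, *Acta2*, the gene of smooth muscle α-actin, had the highest mean, 249 ± 72.0 RPKM (SD, n = 3), followed by the tropomyosin genes *Tpm1* at 108 ± 1.74 RPKM and *Tpm2* at 50.7 ± 4.36 RPKM. *Myl9*, the regulatory light chain of smooth muscle myosin, stood at 17.2 ± 4.54 RPKM and *Tagln*, the actin-binding protein transgelin, at 4.84 ± 1.58 RPKM. Genes that mark mature smooth muscle were at or near the limit of counting, with *Myh11*, the smooth muscle myosin heavy chain, at between 0 and 2 counts per untreated wild-type library and *Des*, the intermediate filament protein desmin, at between 2 and 5 counts. *Actg2*, the enteric smooth muscle actin, had 24 to 45 counts, *Lmod1*, which nucleates actin filaments in smooth muscle, 53 to 104, and *Cnn1*, the actin-binding protein calponin, 9 to 14. Counts per gene do not separate the muscle and non-muscle isoforms that *Tpm1* and *Tpm2* both encode. Actin genes are near-identical in coding sequence, and reads that mapped to several genes were not counted, so the levels of *Acta2* and *Actg2* are uncertain to that extent. *Tagln* is overlapped on the opposite strand by *Gm48529* and *Pcsk7*, and the stranded counts used here kept it apart from them. *Des* and *Lmod1* are overlapped there by *Gm15179* and *Gm22796*. Over all libraries, 58.5% of the stranded counts at *Myh11*, 48.3% at *Lmod1*, 35.6% at *Tagln* and 25.1% at *Cnn1* lay on the opposite strand. This limits what the low counts of *Myh11*, *Lmod1* and *Cnn1* can show.

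**Figure D1:**
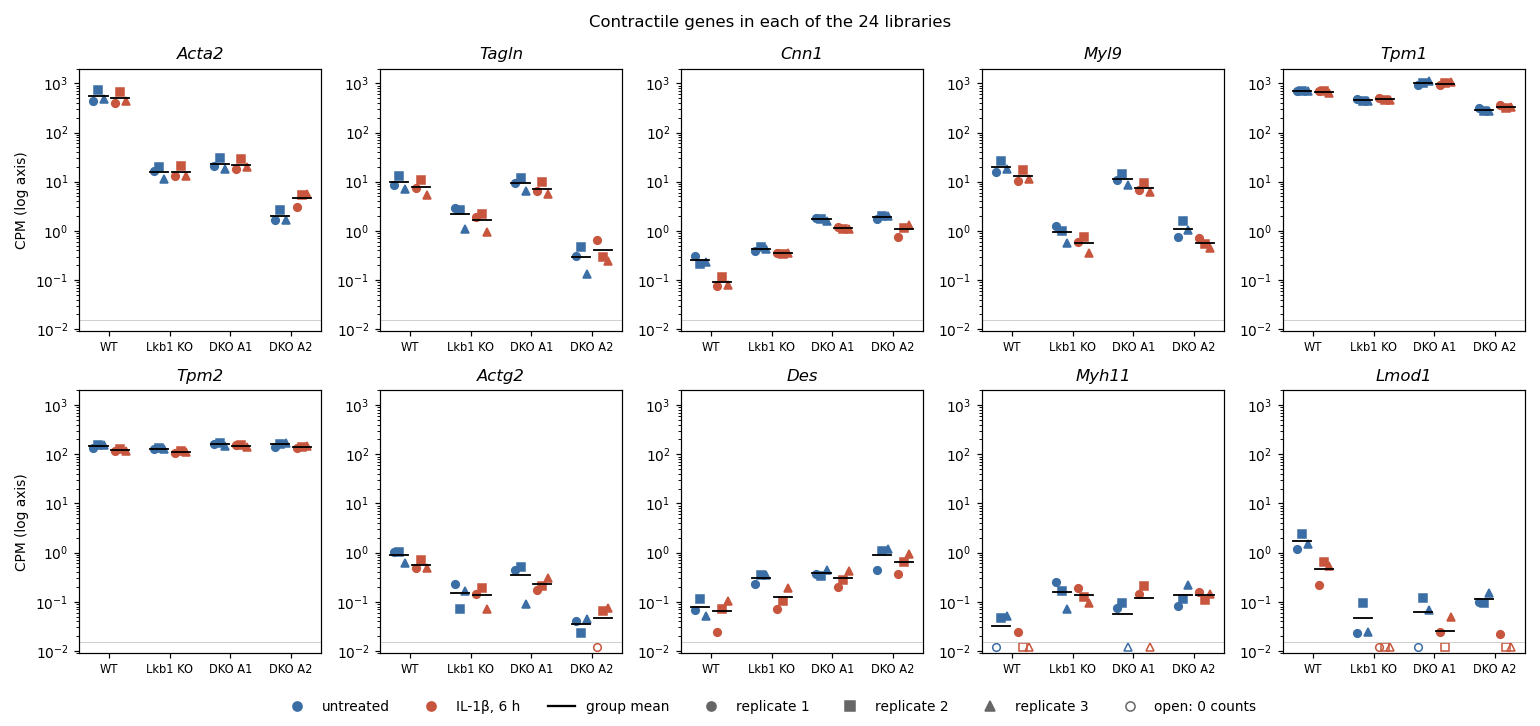
CPM (counts scaled to library size, log axis) of each contractile gene in every library. Blue points are untreated and red points IL-1β libraries, the symbol shape gives the replicate number, bars are group means and open symbols at the foot are libraries with 0 counts. *Acta2* is highest in wild-type MEFs, lower in *Lkb1*-/- MEFs and clone A1 and lowest in clone A2. In clone A1 *Tagln* is back near the wild-type level and *Myl9* lies between *Lkb1*-/- and wild-type MEFs, and both are low in clone A2. *Cnn1* and *Des* are lowest in wild-type MEFs.

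Loss of *Lkb1* was examined first in untreated cells. *Acta2* stood at 435, 727 and 476 CPM in untreated wild-type cells, against 16.6, 19.6 and 11.4 CPM without *Lkb1*, a 34.4-fold difference (log2 fold change -5.11 ± 0.32 SE, FDR = 1.19e-11). The groups were far apart, and *Acta2* made up 37.7% ± 6.02 (SD, n = 3) of the summed counts of the 10 genes in wild-type MEFs and 2.64% ± 0.69 in *Lkb1*-/- MEFs. *Myl9* read 15.7, 25.9 and 18.3 CPM in the wild type and 1.27, 0.974 and 0.571 CPM without *Lkb1* (21.1-fold lower, log2 fold change -4.40 ± 0.33, FDR = 2.28e-10). *Tagln* fell from 8.62, 13.1 and 7.12 CPM to 2.87, 2.65 and 1.07 CPM (log2 fold change -2.13 ± 0.40, FDR = 0.000103). On unstranded counts, which held 4.98% as many reads for this gene as the stranded counts, *Tagln* missed the threshold (-1.35, FDR = 0.0576). For *Myl9* and *Tagln* every *Lkb1*-/- library lay under every wild-type library. How many of all genes lay apart in this way was not counted, here or in the comparisons below, so such statements describe these libraries only. In a bulk sample, fewer cells that express these genes and less RNA in each cell cannot be told apart.

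The abundant tropomyosin genes moved less. *Tpm1* dropped from 712, 708 and 691 CPM to 470, 434 and 444 CPM (1.56-fold lower, log2 fold change -0.65 ± 0.080, FDR = 5.72e-07). *Tpm2* read 133, 154 and 156 CPM against 128, 133 and 131 CPM (log2 fold change -0.18 ± 0.075) and just missed the threshold with an FDR of 0.0501. Leaving out wild-type replicate 1 or 3, or *Lkb1*-/- replicate 1 or 3, put *Tpm2* past the threshold, with log2 fold changes of -0.25, -0.19, -0.23 and -0.23.

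The scarcer genes split into both directions. *Actg2* had 113 counts over the wild-type libraries and 20 over the *Lkb1*-/- libraries, 5.77-fold lower relative to the library sizes (95% exact interval 3.57 to 9.81, for counting error only; FDR = 0.000233). *Lmod1* had 215 counts against 6, a ratio of 36.6 (interval 16.5 to 101, FDR = 1.10e-06), and no *Lkb1*-/- library held more than 4. Outside wild-type MEFs no library held more than 7 counts of *Lmod1*, so it passed the filter through the wild-type libraries alone. In every comparison with wild-type MEFs it could thus be called only lower, and those calls describe its level without adding support. *Des* went up instead, from 10 counts to 40, a ratio of 3.92 (interval 1.92 to 8.78; FDR = 0.00498), and all 3 *Lkb1*-/- libraries held 10 counts or more. *Cnn1* read 0.313, 0.207 and 0.235 CPM in wild-type and 0.385, 0.464 and 0.429 CPM in *Lkb1*-/- MEFs (log2 fold change 0.75 ± 0.25, FDR = 0.0324). This call for *Cnn1* was lost when wild-type replicate 2 or 3 or any of the 3 *Lkb1*-/- replicates was left out, with log2 fold changes between 0.62 and 0.75 and FDRs between 0.0540 and 0.129. *Myh11*, untested, had 4 counts over the wild-type and 21 over the *Lkb1*-/- libraries.

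Of the 9 tested genes, 6 were thus called lower and 2 higher in untreated *Lkb1*-/- MEFs, while 55.9% of all 17522 genes tested were called in one direction or the other in the same comparison, 25.8% lower and 30.1% higher. Calls were made at an FDR under 0.05 in edgeR's quasi-likelihood test with Benjamini-Hochberg adjustment over all tested genes. The median log2 fold change of the 9 genes was -2.13, against 0.04 over all tested genes. Both the 6 lower calls and this median include *Lmod1*, which was tested only because of its wild-type counts. Genes on the chromosomes of the tested contractile genes had median log2 fold changes between -0.29 (chromosome 1, with *Des* and *Lmod1*) and 0.22 (chromosome 6, with *Actg2*), and the median on chromosome 19, which carries *Acta2*, was 0.12. *Stk11*, the gene of LKB1, fell from 86.0 ± 1.68 to 17.3 ± 1.24 CPM (SD, n = 3).

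The same order held among the stimulated libraries. After IL-1β, *Acta2* read 407, 660 and 435 CPM in the wild type against 12.9, 20.5 and 12.8 CPM without *Lkb1* (log2 fold change -5.02 ± 0.31, FDR = 1.47e-11). *Myl9* (-4.51 ± 0.34), *Tagln* (-2.23 ± 0.41) and *Tpm1* (-0.51 ± 0.080) were again lower, and *Cnn1* was higher, with 46 counts over the *Lkb1*-/- libraries and 11 over the wild-type libraries (ratio 3.88, interval 1.98 to 8.31, FDR = 2.27e-05). *Lmod1* had no counts in any stimulated *Lkb1*-/- library and was at least 6.88-fold lower there, against a floor of 3 counts per library. The calls came to 6 lower and 1 higher, with 57.4% of all genes called, 27.1% lower and 30.2% higher. *Des*, with 16 counts over the *Lkb1*-/- and 8 over the wild-type libraries (FDR = 0.276), did not pass the test under IL-1β.

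**Figure D2:**
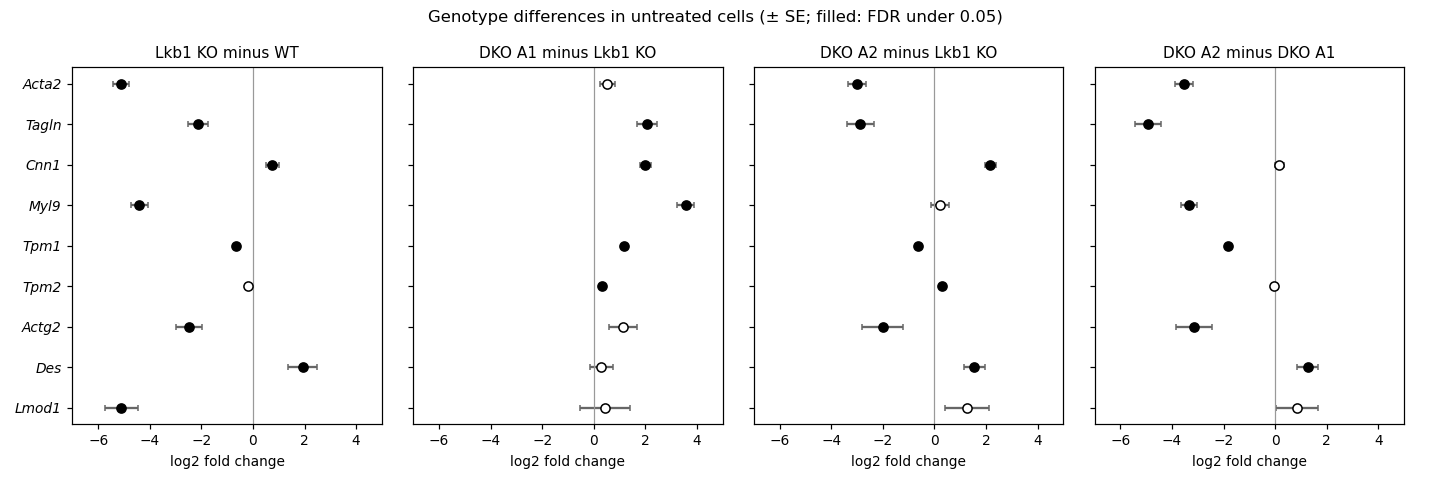
Log2 fold changes (points) with standard errors (bars) of the 9 tested contractile genes in untreated cells, in 4 comparisons of genotypes. Filled points have an FDR under 0.05. *Acta2*, *Myl9* and *Lmod1* lie furthest to the left in the first panel, all called genes lie to the right of 0 in clone A1, and the last panel shows 5 genes lower and *Des* higher in clone A2 than in clone A1.

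The double-knockout clones were then compared with the *Lkb1*-/- cells they came from. *Crtc2* transcript was lower in both clones, at 42.9 ± 2.11 CPM in A1 and 49.8 ± 0.86 CPM in A2 against 81.1 ± 1.80 CPM in untreated *Lkb1*-/- MEFs (SD, n = 3). Counts do not show whether a transcript still encodes the protein.

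In clone A1, several of the genes that were low without *Lkb1* were back up. *Myl9* stood at 10.6, 14.2 and 8.69 CPM in untreated A1 libraries, 11.8-fold above *Lkb1*-/- MEFs (log2 fold change 3.56 ± 0.32, FDR = 4.45e-08). *Tagln* read 9.22, 11.9 and 6.57 CPM (4.19-fold higher, log2 fold change 2.07 ± 0.40, FDR = 0.000342). *Tpm1* reached 925, 1024 and 1130 CPM (2.28-fold higher, log2 fold change 1.19 ± 0.081, FDR = 8.47e-10), above all wild-type libraries as well. In all 3 genes no A1 library overlapped an *Lkb1*-/- library. *Cnn1* rose to 1.80, 1.73 and 1.59 CPM (3.99-fold, log2 fold change 2.0 ± 0.21, FDR = 2.83e-07), and *Tpm2* to 165, 173 and 148 CPM (1.24-fold, log2 fold change 0.31 ± 0.075, FDR = 0.00242).

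*Acta2* did not pass the test. Its levels of 21.1, 29.6 and 17.9 CPM in clone A1 overlapped those of *Lkb1*-/- MEFs (log2 fold change 0.53 ± 0.28, FDR = 0.156). Taken by replicate number, each A1 library lay above its *Lkb1*-/- counterpart, at 16.6, 19.6 and 11.4 CPM. With replicate number as a blocking term *Acta2* did pass, although the numbers did not meet the rule for pairing in this comparison. Against wild-type MEFs, *Acta2* in clone A1 was 4.58 ± 0.31 lower on the log2 scale (FDR = 4.72e-11), whereas *Tagln* differed from wild-type by -0.06 ± 0.37 (FDR = 0.900) and *Myl9* by -0.84 ± 0.27 (FDR = 0.0112). The *Myl9* call against wild-type was lost without wild-type replicate 2 (log2 fold change -0.61) or A1 replicate 3 (-0.69). *Actg2*, *Des* and *Lmod1* did not pass the test between clone A1 and *Lkb1*-/- MEFs (FDRs of 0.113, 0.660 and 0.769), although *Actg2* did without A1 replicate 3 (log2 fold change 1.59, FDR = 0.0165). The calls in clone A1 against *Lkb1*-/- MEFs thus came to 5 higher and 0 lower, at 35.3% of all genes called, 18.9% higher and 16.4% lower. Every one of the 9 tested genes had a log2 fold change above 0 in this comparison, as did 51.7% of all genes, and DESeq2 called 5 genes as well, among 6354 of 20126.

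With IL-1β the same 5 genes, *Tagln*, *Cnn1*, *Myl9*, *Tpm1* and *Tpm2*, were called higher in clone A1 than in *Lkb1*-/- MEFs, with log2 fold changes of 2.11, 1.68, 3.70, 1.05 and 0.44 (36.7% of all genes called, 19.4% higher and 17.3% lower). *Acta2* was again not called (0.52 ± 0.28, FDR = 0.163), but passed once replicate number was added as a blocking term (log2 fold change 0.53, FDR = 0.000824), as was *Des* (1.28, FDR = 0.00864 with the block and 0.0589 without it). Leaving out A1 replicate 1 or *Lkb1*-/- replicate 3 also put *Des* past the threshold (log2 fold changes 1.49 and 1.72).

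Clone A2 differed from clone A1 in most of these genes. *Acta2* fell further, to 1.65, 2.69 and 1.63 CPM in untreated A2 libraries, 8.0-fold under *Lkb1*-/- MEFs (log2 fold change -3.00 ± 0.34, FDR = 9.98e-07) and 276-fold under wild-type MEFs. *Tagln* fell to 0.302, 0.463 and 0.132 CPM (7.34-fold lower than *Lkb1*-/- MEFs, log2 fold change -2.88 ± 0.51, FDR = 0.000188), and *Tpm1* to 314, 271 and 280 CPM (log2 fold change -0.64 ± 0.080, FDR = 3.60e-06). Each of these 3 genes was lower in every A2 library than in any untreated library of another group. *Myl9*, at 0.745, 1.55 and 1.03 CPM, overlapped *Lkb1*-/- MEFs (log2 fold change 0.23 ± 0.35, FDR = 0.675).

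*Cnn1*, *Des* and *Tpm2* were higher in clone A2 than in *Lkb1*-/- MEFs. *Cnn1* read 1.75, 1.97 and 2.03 CPM in clone A2 (4.47-fold above *Lkb1*-/- MEFs, log2 fold change 2.16 ± 0.21, FDR = 1.28e-07), overlapping clone A1. *Des* rose to 0.443, 1.09 and 1.21 CPM (2.92-fold, log2 fold change 1.55 ± 0.41, FDR = 0.00606), and *Tpm2* to 143, 163 and 168 CPM (1.21-fold, log2 fold change 0.28 ± 0.075, FDR = 0.00683). *Actg2* had 5 counts over the A2 libraries against 20 in *Lkb1*-/- MEFs, a ratio of 4.28 (95% exact interval 1.56 to 14.6). Its FDR of 0.0473 rose to between 0.0865 and 0.190 when any A2 replicate, or *Lkb1*-/- replicate 1 or 3, was left out. The calls came to 3 higher and 4 lower, with 32.3% of all genes called, 17.1% higher and 15.1% lower. After IL-1β, *Acta2* (-1.71 ± 0.31), *Tagln* (-2.05 ± 0.50) and *Tpm1* (-0.52 ± 0.080) were lower and *Cnn1* (1.60 ± 0.22), *Des* (2.37 ± 0.48) and *Tpm2* (0.35 ± 0.075) higher in clone A2 than in *Lkb1*-/- MEFs, at 32.8% of all genes called, 17.1% higher and 15.8% lower. *Actg2* was not among these calls (FDR = 0.127).

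The difference between the 2 clones was tested directly. In untreated cells, clone A2 was lower than clone A1 by 3.53 ± 0.34 for *Acta2* (11.5-fold), 4.94 ± 0.50 for *Tagln* (30.7-fold), 3.33 ± 0.32 for *Myl9* (10.1-fold) and 1.83 ± 0.082 for *Tpm1* (3.56-fold), all on the log2 scale, with FDRs of 1.12e-07, 2.15e-07, 9.56e-08 and 1.81e-12. *Actg2* was lower too, with 5 counts against 43 (ratio 9.42, interval 3.74 to 30.5, FDR = 0.00116). For none of the 5 did an A2 library reach the lowest A1 library, although for *Actg2* the counts were 2, 1 and 2 in A2 against 18, 21 and 4 in A1. *Des* was higher in clone A2 (log2 fold change 1.25 ± 0.40, FDR = 0.0203), but not when A1 replicate 1 or 2 or A2 replicate 2 or 3 was left out (log2 fold changes of 1.23, 1.17, 1.11 and 1.01, FDRs between 0.0618 and 0.0969). *Cnn1* (0.17 ± 0.19, FDR = 0.544) and *Tpm2* (-0.04 ± 0.075, FDR = 0.770) did not differ detectably between the clones. These 5 lower calls and 1 higher call stood against 32.5% of all genes called between the untreated clones, 16.7% lower and 15.8% higher. With IL-1β the same 5 genes were called lower in clone A2 (30.7% of all genes called, 15.6% lower and 15.1% higher), and *Des*, not called (FDR = 0.0535), passed with the replicate block (1.09, FDR = 0.00504) and without A1 replicate 3 (1.43) or A2 replicate 1 (1.38). For *Actg2* the stimulated call was lost without A1 replicate 3 (log2 fold change -2.0) or A2 replicate 1 (-1.68).

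Against wild-type MEFs, the order of the untreated levels could be read gene by gene. *Acta2* ran from wild-type MEFs over clone A1 and *Lkb1*-/- MEFs, which overlapped, down to clone A2. *Tagln* and *Myl9* ran from wild-type MEFs over clone A1 down to *Lkb1*-/- MEFs and clone A2, with wild-type and A1 overlapping for *Tagln* and *Lkb1*-/- and A2 overlapping for *Myl9*. *Tpm1* was ordered A1, wild-type, *Lkb1*-/- and A2, without overlap. *Cnn1* rose from wild-type over *Lkb1*-/- to the clones, and *Des* from wild-type over *Lkb1*-/- and A1, which overlapped, to A2. In clone A1, 4 genes were called lower and 3 higher than in wild-type MEFs (55.4% of all genes called, 25.1% lower and 30.3% higher). In clone A2, 6 were lower and 2 higher (60.6% of all genes called, 27.9% lower and 32.7% higher). With IL-1β these counts were 4 lower and 4 higher for A1, beside 56.9% of all genes called, 26.9% lower and 30.1% higher. They were 6 lower and 3 higher for A2, beside 60.8% called, 28.8% lower and 32% higher. Against wild-type MEFs, *Actg2* in clone A1 lost its call without untreated wild-type replicate 1 or 2 or A1 replicate 3 (log2 fold changes of -1.25, -1.25 and -0.90), and *Tpm2* gained one without A1 replicate 3 (0.20). After IL-1β, *Actg2* lost its call without A1 replicate 1 or 2 or wild-type replicate 2, *Myl9* without A1 replicate 1 or 3 or wild-type replicate 2, and *Tpm2* in clone A2 without wild-type replicate 1 (0.20, FDR = 0.0548). Those log2 fold changes ran from -1.12 to -1.25 for *Actg2* and from -0.55 to -0.74 for *Myl9*. These comparisons share their wild-type libraries with the comparison of *Lkb1*-/- and wild-type MEFs.

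For *Acta2*, *Tagln* and *Myl9*, the change with IL-1β in wild-type MEFs was smaller than their difference between untreated *Lkb1*-/- and wild-type MEFs, whereas for *Cnn1* (-1.46 against 0.75) and *Tpm2* (-0.29 against -0.18) it was not. In wild-type MEFs, *Tpm2* went from 133, 154 and 156 CPM to 117, 126 and 119 CPM (log2 fold change -0.29 ± 0.075, FDR = 0.0482) and *Lmod1* from 53, 104 and 58 counts to 9, 28 and 21 counts (log2 fold change -1.83 ± 0.47, FDR = 0.0431). These were the 2 calls in wild-type MEFs, both lower, where 2.26% of all genes were called, 0.731% lower and 1.53% higher. Both were lost when any 1 wild-type library other than untreated replicate 1 was left out, with log2 fold changes of -0.26 to -0.32 for *Tpm2* and -1.50 to -2.15 for *Lmod1*. None of the 9 genes passed in *Lkb1*-/- MEFs (4.74% of all genes called, 2.09% lower and 2.65% higher) or in clone A1 (1.99%, 0.788% lower and 1.2% higher). DESeq2 and every fit that left out a library also gave 0 calls in both, while 3 genes in *Lkb1*-/- MEFs and 2 in clone A1 had an unadjusted p under 0.05, as did 14.7% and 10.7% of all genes.

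In clone A2, *Acta2* went up from 1.65, 2.69 and 1.63 CPM to 3.09, 5.42 and 5.63 CPM (2.38-fold, log2 fold change 1.25 ± 0.36, FDR = 0.0437), and every stimulated library lay above every untreated one. *Cnn1* went down from 1.75, 1.97 and 2.03 CPM to 0.750, 1.15 and 1.32 CPM (log2 fold change -0.84 ± 0.19, FDR = 0.00930). Beside these 2 calls, 5.68% of all genes were called in clone A2, 2.81% higher and 2.86% lower. The *Acta2* call was lost without untreated replicate 1 or 3 or stimulated replicate 2 or 3 (log2 fold changes between 1.13 and 1.15, FDRs between 0.0925 and 0.177), and that of *Cnn1* without stimulated replicate 1 (-0.63, FDR = 0.0551). *Tpm1* passed only without untreated replicate 1 among the fits that left out a library (0.29, FDR = 0.0347). In the other genotypes *Acta2* barely moved, by -0.12 ± 0.26 in wild-type MEFs, -0.04 ± 0.28 in *Lkb1*-/- MEFs and -0.05 ± 0.28 in clone A1.

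Libraries with the same replicate number deviated together in the IL-1β comparisons, and with the number as a block more of these genes passed. In wild-type MEFs, *Cnn1* (log2 fold change -1.46, FDR = 0.0236) and *Myl9* (-0.61, FDR = 0.00764) joined *Tpm2* and *Lmod1*. In *Lkb1*-/- MEFs, *Tpm2* (-0.23, FDR = 0.00749) and *Des* (-1.35, FDR = 0.0177) passed. *Myl9* passed in clone A1 (-0.57, FDR = 0.0163) and in clone A2 (-0.94, FDR = 0.0121), where *Lmod1* joined it with 16 counts over the untreated and 1 over the stimulated libraries (FDR = 0.0163). The block raised the calls over all genes too, to 1629 in wild-type MEFs, 2601 in *Lkb1*-/- MEFs, 1684 in clone A1 and 3133 in clone A2. Counted by same-numbered pairs of libraries, *Cnn1*, *Myl9* and *Tpm2* were lower after IL-1β in 12 of 12 pairs, *Des* and *Lmod1* in 11 and *Tagln* in 10, while *Acta2* and *Tpm1* were lower in 6 of 12.

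**Figure D3:**
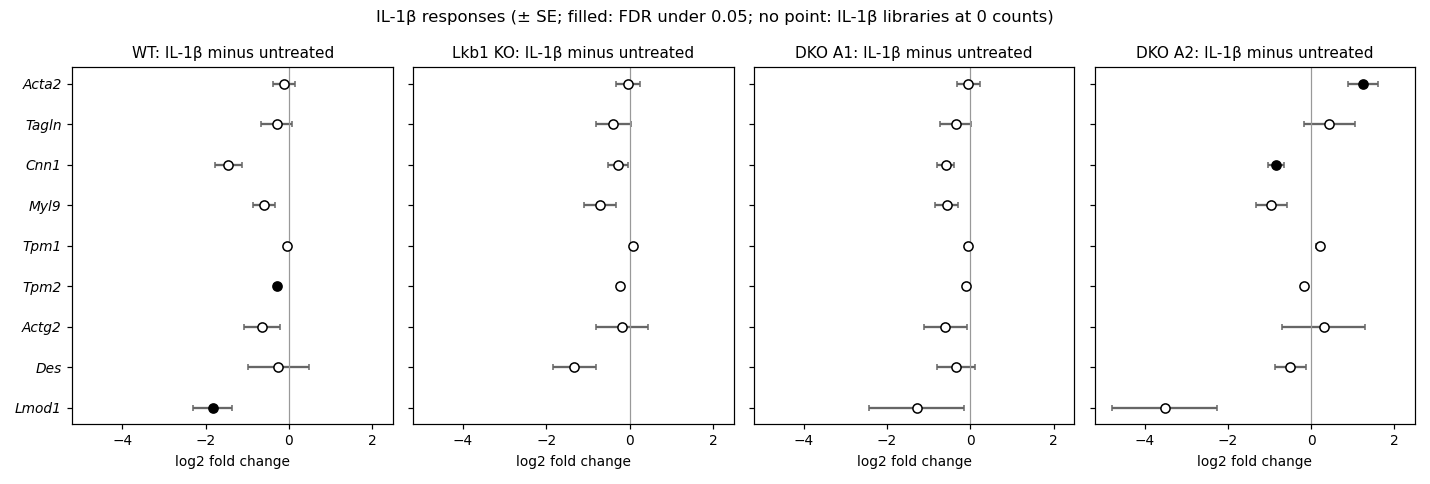
Log2 fold changes (points) with standard errors (bars) of the 9 tested contractile genes after IL-1β, in each genotype. Filled points have an FDR under 0.05, and *Lmod1* has no point in *Lkb1*-/- MEFs, where all 3 IL-1β libraries held 0 counts. *Cnn1* and *Myl9* lie left of 0 in all 4 panels, and *Acta2* lies to the right of 0 in clone A2 and close to 0 elsewhere.

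Whether the IL-1β response itself differed between genotypes was tested with the difference of the log2 fold changes. None of the 9 genes passed for *Lkb1*-/- minus wild-type MEFs (0.245% of all genes called, 0.137% higher and 0.108% lower), for clone A1 minus *Lkb1*-/- MEFs (0.0285%, all lower) or for clone A2 minus *Lkb1*-/- MEFs (0%). At an unadjusted p under 0.05, *Cnn1* differed in the first (1.18 ± 0.40) and *Acta2* in the last (1.29 ± 0.46, FDR = 1.00), 1 of 9 each, and 0 of 9 in the second, where 5.62%, 2.47% and 2.21% of all genes had such a p in the first, second and last. With the replicate block the *Acta2* difference had an FDR of 0.0157 (log2 difference 1.30), among 18 genes called. DESeq2 called none of the 9 genes in these differences.

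The contractile genes did not vary as 1 unit. Over the 24 libraries, Pearson's r of log2 CPM was 0.91 for *Tagln* with *Tpm1*, 0.90 for *Acta2* with *Actg2* and 0.86 for *Tagln* with *Myl9*, and was -0.82 for *Acta2* with *Des* and -0.78 for *Acta2* with *Cnn1*. These values describe 8 groups that differ in genotype, so they mostly restate the differences between genotypes. Within groups, as deviations from the group means, *Tagln* and *Myl9* kept an r of 0.82 and *Acta2* and *Myl9* 0.66, whereas *Tpm1* and *Tpm2* had -0.62 and *Tagln* and *Tpm1* 0.17. The replicate number moved with these levels. *Acta2* was highest in replicate 2 in 7 of 8 groups, *Tagln* was lowest in replicate 3 in 8 of 8 groups, and *Des* was highest in replicate 3 in 7 of 8. What the replicate numbers stand for is not stated, and its part in these deviations was not tested.

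**Figure D4:**
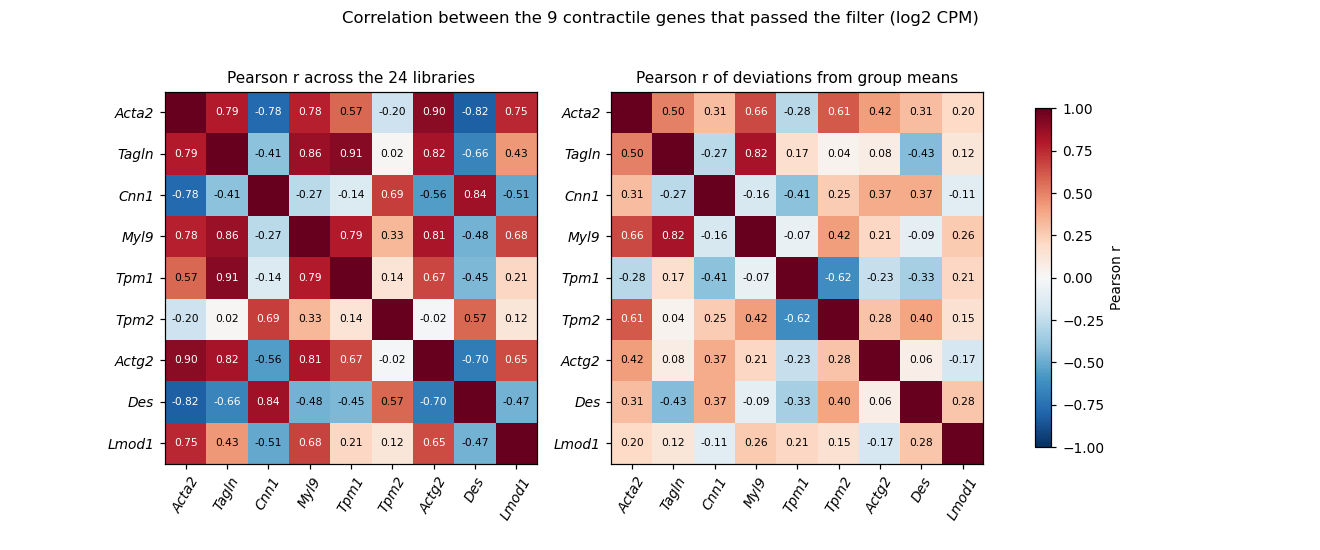
Pearson's r of log2 CPM between the 9 contractile genes that passed the filter, over the 24 libraries (left) and for deviations from the 8 group means (right). Red is positive and blue negative. Most of the strong values on the left shrink on the right, where *Tagln* with *Myl9* keeps 0.82 and *Tpm1* with *Tpm2* turns to -0.62.

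Among 9366 other genes with a mean log2 CPM above 3, those whose pattern over the 24 libraries was most like that of *Acta2* were *Pdlim1*, a PDZ and LIM domain protein of stress fibers (r = 0.99), *Oxsr1*, a stress-responsive kinase (0.98), and *Eif1a*, a translation initiation factor (0.98). *Pdlim1* stood at 190 CPM in untreated wild-type, 72.9 CPM in *Lkb1*-/-, 77.0 CPM in A1 and 44.3 CPM in A2 libraries, and lies on chromosome 19 like *Acta2*. For *Tagln* these genes were *Ddx1*, *Ppic* and *Dicer1* (r = 0.96 each), and for *Cnn1* they were *Sgsm1*, *Bhlhb9* (0.96 each) and *Rragb* (0.96). The 24 libraries fall into 4 genotypes, so libraries of 1 genotype are not separate points, and these values are given as descriptions.

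Other parts of the contractile apparatus were described with lists of related genes. Their counts are to be read against all tested genes, of which 25.8% were lower and 30.1% higher in untreated *Lkb1*-/- than in wild-type MEFs (median 0.04). The shares were 16.4% lower and 18.9% higher for clone A1 against *Lkb1*-/- MEFs (median 0.02), 15.1% and 17.1% for clone A2 (median 0.02), and 16.7% and 15.8% for clone A2 against clone A1 (median 0.02). Of 20 partners of the thin filament, 12 were lower and 3 higher without *Lkb1* (median log2 fold change -0.58). *Cnn2*, a non-muscle calponin, was lower by 2.02 ± 0.15 on the log2 scale, *Vcl*, the focal adhesion protein vinculin, by 1.40 ± 0.089, *Csrp2*, a LIM domain protein of smooth muscle, by 1.22 ± 0.17 and *Pdlim7*, a PDZ and LIM domain protein, by 1.11 ± 0.063. In clone A1 against *Lkb1*-/- MEFs, 9 of the 20 were higher and 2 lower, among them *Cnn2* (1.09 ± 0.14) and *Actn1*, the actin crosslinker α-actinin (0.85 ± 0.075). In clone A2, 1 was higher and 9 lower, with *Tpm4*, a non-muscle tropomyosin, at -0.73 ± 0.075 and *Csrp2* at 0.72 ± 0.17. Between the clones, 15 of the 20 were lower in A2 and 0 higher.

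Of 12 genes of myosin and its regulators, 7 were lower and 2 higher without *Lkb1* (median -0.42), including *Myl6*, an essential light chain (-0.97 ± 0.082), *Rock2* (-0.95 ± 0.072) and *Rock1* (-0.57 ± 0.098), the kinases that act on myosin phosphatase, and *Ppp1r12a*, a subunit of that phosphatase (-0.61 ± 0.080). In clone A1, 6 were higher and 1 lower than in *Lkb1*-/- MEFs, with *Myl6* at 0.70 ± 0.082 and *Myh9*, a non-muscle myosin heavy chain, at 0.63 ± 0.082. In clone A2, 0 were higher and 2 lower, *Rock1* (-0.40 ± 0.098) and *Ppp1r12b* (-0.38 ± 0.082). Of the other actins, *Actg1*, cytoplasmic γ-actin, was lower in *Lkb1*-/- MEFs (-1.16 ± 0.096, FDR = 1.16e-09) and higher in clone A1 than there (0.49 ± 0.095). *Actb*, cytoplasmic β-actin, did not pass between *Lkb1*-/- and wild-type MEFs (-0.16 ± 0.10, FDR = 0.209).

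**Figure D5:**
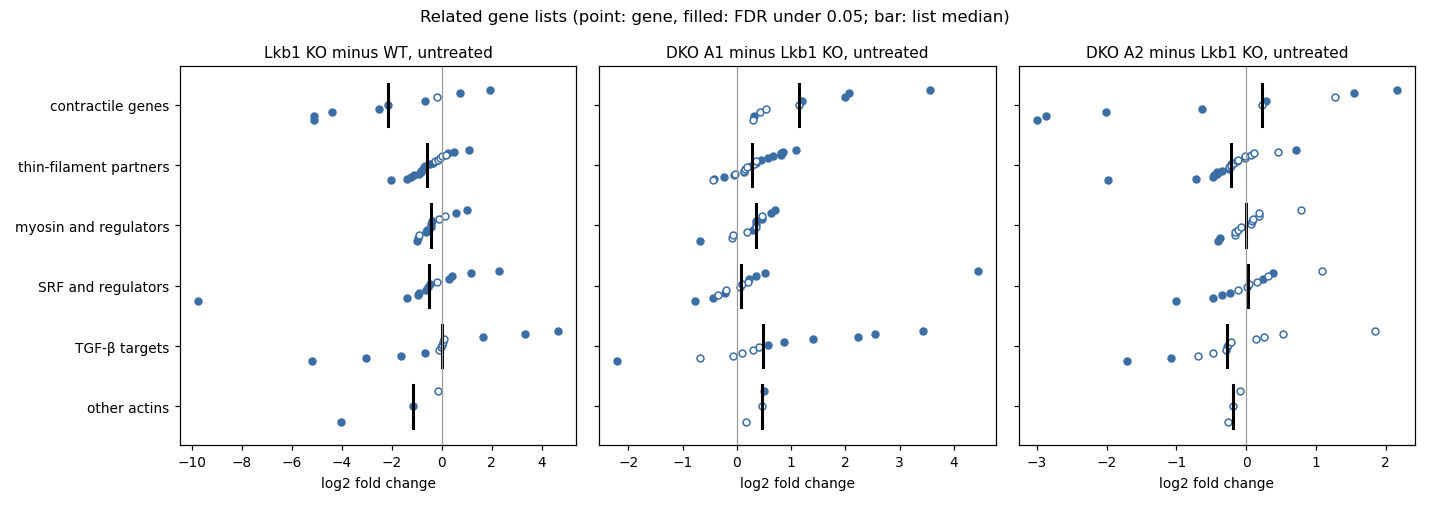
Log2 fold changes of single genes (points, filled where the FDR is under 0.05) in the contractile genes and 5 related lists, for 3 comparisons of untreated cells, with the median of each list as a bar. The scales differ between panels. In the first panel the point at the far left is *Gata6*, and the medians of the contractile genes (-2.13), the thin-filament partners (-0.58), the myosin genes (-0.42), the SRF list (-0.50) and the other actins (-1.16) lie left of 0, and that of the TGF-β targets (0.00) does not.

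The transcripts of SRF and of factors that work with it or against it were read from the same libraries. Of 12 tested genes, 7 were lower and 4 higher in untreated *Lkb1*-/- than in wild-type MEFs (median -0.50). *Srf* itself went from 100 ± 7.0 to 52.5 ± 1.67 CPM (log2 fold change -0.93 ± 0.085, FDR = 6.43e-09). Its coactivators *Mrtfa* (0.42 ± 0.069) and *Mrtfb* (0.30 ± 0.079) were higher, and *Myocd*, the smooth muscle coactivator myocardin, had at most 3 counts in an untreated library and was not tested. *Yap1* was lower (-0.53 ± 0.079), its relative *Wwtr1* did not pass (-0.20 ± 0.13, FDR = 0.222), and of the TEAD factors *Tead1* (-0.62 ± 0.10), *Tead3* (-0.46 ± 0.10) and *Tead4* (-1.40 ± 0.11) were lower and *Tead2* (1.17 ± 0.13) higher. *Klf4*, which represses smooth muscle genes, was higher (2.32 ± 0.16), *Elk3*, an ETS factor that competes for SRF, lower (-0.91 ± 0.087), and *Gata6* went from 15.8 ± 0.27 CPM to at most 2 counts per library.

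In clone A1 these regulators split, with 4 higher and 3 lower than in *Lkb1*-/- MEFs. *Mrtfa* (0.22 ± 0.069), *Yap1* (0.35 ± 0.079), *Elk3* (0.53 ± 0.086) and *Gata6* (at most 24 counts per library) were higher, *Mrtfb* (-0.22 ± 0.079), *Tead2* (-0.44 ± 0.13) and *Tead3* (-0.78 ± 0.10) lower, and *Srf* was not called (0.09 ± 0.085, FDR = 0.433). In clone A2, 2 were higher and 4 lower, with *Srf* (-0.34 ± 0.085), *Mrtfb* (-0.23 ± 0.079), *Tead1* (-0.47 ± 0.10) and *Klf4* (-1.0 ± 0.15) lower and *Tead3* (0.38 ± 0.10) and *Elk3* (0.24 ± 0.086) higher.

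Of 12 targets of TGF-β, 3 were higher and 4 lower without *Lkb1* (median 0.00), beside 30.1% of all genes higher and 25.8% lower, so these counts were near the background. *Ccn2*, a matricellular protein, went from 261 ± 36.0 to 7.25 ± 1.83 CPM (log2 fold change -5.17 ± 0.26), while *Tgfbi* (4.67 ± 0.32) and *Fn1*, fibronectin (1.65 ± 0.13), both matrix proteins, were higher. In clone A1, 6 were higher and 1 lower than in *Lkb1*-/- MEFs, including *Ccn2* (2.24 ± 0.23). In clone A2, 0 were higher and 3 lower, among them *Smad7*, an inhibitor of TGF-β signaling (-0.28 ± 0.082).

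Marker genes of other cell types were read beside these results. The fibroblast markers *Vim* (2462 to 3208 CPM as untreated group means) and *Col1a1* (1485 to 2699 CPM) were high in all 4 genotypes, whereas *Thy1* and *Lum* had at most 2 counts in any untreated library. *Pdgfra* (6.22 ± 0.32) and *Dcn* (9.04 ± 0.46) were higher and *Col1a2* (-3.63 ± 0.30) lower in *Lkb1*-/- than in wild-type MEFs, so the lines differed in fibroblast markers as well, with 3 higher and 3 lower of 7 tested. The summed level of 10 striated muscle markers was lower without *Lkb1*, going from 4.0 to 6.33 CPM in untreated wild-type libraries to 0.673 to 1.09 CPM in *Lkb1*-/- libraries. Only 2 of the 10 passed the filter on low counts, and these carried the sum, *Acta1* (2.20 ± 0.75 to 0.132 ± 0.049 CPM) and *Tnnt2* (2.56 ± 0.60 to 0.530 ± 0.29 CPM). Neither was called between a clone and *Lkb1*-/- MEFs, with *Tnnt2* at 0.311 ± 0.072 CPM in A1. *Myod1* had at most 1 count and *Ttn* at most 5 per untreated library. Pericyte markers did not move together, with 1 higher and 1 lower of 4 tested. *Cspg4* went from 191 ± 9.32 to 18.5 ± 1.43 CPM and carried the summed level of the list, which went from 217 to 254 CPM to 66.8 to 78.2 CPM. *Notch3* rose from at most 2 counts per library to 4.0 ± 1.31 CPM, and *Mcam* was not called (42.5 ± 10.7 and 49.5 ± 4.11 CPM, FDR = 0.272). Endothelial, epithelial and hematopoietic markers each summed to at most 8.96 CPM in any library. Of these, *Kdr* (0.390 to 2.60 CPM, FDR = 2.58e-08), *Csf1r* (0.0464 to 1.68 CPM, FDR = 6.01e-10) and *Epcam* (0.0313 to 0.232 CPM, FDR = 0.00203) were higher in *Lkb1*-/- than in wild-type MEFs. Markers also differed between the clones and *Lkb1*-/- MEFs. In clone A1, *Col1a2* (1.96 ± 0.28), *Col1a1* (0.86 ± 0.21) and *Vim* (0.31 ± 0.076) were higher and *Dcn* (-2.93 ± 0.30) lower. In clone A2, *Col1a2* (1.02 ± 0.28) was higher and *Dcn* (-3.28 ± 0.31) lower, and 1 gene was higher and 1 lower of 7 tested, against 3 and 1 in A1. *Cspg4* was lower still in both clones, at 0.144 ± 0.089 CPM in A1 and 0.257 ± 0.15 CPM in A2 (FDR = 2.02e-12 and 3.33e-12). *Notch3* was higher in A2 (10.5 ± 3.24 CPM, 1.39 ± 0.28) and not called in A1, and *Cd68*, a macrophage marker, was higher in A1 (0.57 ± 0.21, FDR = 0.0367) and A2 (0.67 ± 0.21, FDR = 0.0161). No endothelial or epithelial marker was called in either clone, with 1 of each tested. The part of any other cell type in the levels of the contractile genes was not tested.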

How the data were processed

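RNA-seq libraries of 8 groups, 3 each, were analysed. The deposited files hold counts per gene that the authors made with Trim Galore 0.6.0 and STAR 2.7.8a on GRCm38 (mm10), as unstranded counts and as counts for each strand. The second-strand counts were used, since they held 95.5 to 96% of the reads assigned to either strand, and 4 lines that name no gene (26.7 to 34.4% of each library) were left out. The labels and the methods name different library kits, so that the kit is not settled here. Symbols came from GENCODE M21 of the same build and matched 55230 of 55471 genes.

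Genes were filtered with filterByExpr (count minimum 10, total 15) and fitted in 1 quasi-likelihood model of all 24 libraries in edgeR 4.0.16 (limma 3.58.1, R 4.3.3) after TMM scaling, with 19 comparisons, each adjusted by Benjamini-Hochberg (FDR) over 17522 genes at a threshold of 0.05. CPM was computed after TMM scaling, and RPKM by union exon length. With 3 against 3 libraries an exact permutation test cannot go below p = 0.10 and was not used. On simulated data for untreated *Lkb1*-/- against wild-type MEFs (16870 genes), 95% of changed genes were recovered at a log2 fold of 1 and 100% at 2. The changed genes were drawn from those above a minimum mean count. All genes were given the same spread, and no deviations shared by replicate number were simulated. The recovery therefore does not cover scarce genes such as *Des*, *Actg2* and *Lmod1*. The members and lists were chosen with earlier results of these data known. List genes named in the text were those with the largest called change in each list among genes with a mean log2 CPM above 3, up to 4 for *Lkb1*-/- against wild-type MEFs and up to 2 for each clone against *Lkb1*-/- MEFs, and the SRF list was given in full. *Actb* and the cell type markers outside this rule were named after their values were seen. A gene of the TGF-β list that the rule named is not reported here.

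Libraries that share a replicate number deviated together. Over 84 such pairs r of the deviations ranged from 0.0355 to 0.589 with a median of 0.222, against a median of -0.115 for other pairs, and 23 of 24 libraries matched their own number best. What the numbers mark is not stated, and the pairing was taken as given where every pair of a comparison was over 0.1, which held for 10 comparisons. Alternatives were DESeq2 1.42.0, other scalings and filters, unstranded counts, the newer quasi-likelihood method, fits of the compared groups alone, replicate blocks and leaving out each library.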

Additional observations from a re-analysis of the deposited data

Results flagged for a closer look

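The effects of the 2 clones against the shared *Lkb1*-/- libraries differed from each other by a direct test for 6 contractile genes in untreated cells. Clone A2 minus clone A1 was -3.53 for *Acta2*, -4.94 for *Tagln*, -3.33 for *Myl9*, -1.83 for *Tpm1* and -3.15 for *Actg2* on the log2 scale, and 1.25 for *Des*. After IL-1β the difference was -2.23 for *Acta2*, -4.16 for *Tagln*, -3.71 for *Myl9*, -1.57 for *Tpm1* and -2.25 for *Actg2*. Each clone grew from a single cell, and clone and *Crtc2* loss cannot be told apart. No other genotype had a second clone.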

How the results depend on the processing

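Of 85 calls of single contractile genes, 61 held under every alternative run and 24 were lost under at least 1, and no called value changed its direction. *Tagln* was lost in 9 of its 10 called comparisons on unstranded counts (not in untreated A2 against wild-type MEFs), where reads of the overlapping *Gm48529* and *Pcsk7* are not kept apart and 4.98% of its stranded counts remain, and other lost calls were those of *Cnn1*, *Actg2*, *Des*, *Lmod1*, *Myl9*, *Tpm2* and *Acta2* at low counts or near the threshold. With at least 10 counts in every library, 4 of these genes were tested (*Acta2*, *Myl9*, *Tpm1* and *Tpm2*), and 3 were called in *Lkb1*-/- and in clone A2 against wild-type untreated cells, in stimulated *Lkb1*-/- against wild-type, and in each clone against *Lkb1*-/- MEFs and A2 against A1 in either condition, 4 in A1 against wild-type in either condition and in stimulated A2 against wild-type, and 1 for IL-1β in wild-type MEFs and in clone A2. Of 12755 genes tested under this filter, 5028 to 8456 were called between genotypes, and 438 and 1075 for IL-1β in wild-type MEFs and in clone A2. Fitted on the compared groups alone, 0 passed for IL-1β in wild-type MEFs (375 of all 14875 genes) and 0 in clone A2 (246 of 16001, against 995 of 17522). Without a filter, 1 passed for IL-1β in clone A1 (908 of all 36796 genes) and 1 in the difference of responses of clone A2 and *Lkb1*-/- MEFs (68), and the newer quasi-likelihood method gave 1 for IL-1β in clone A2 (1100 of 17522); the cause was not tested. Leaving out 1 library gave 0 to 2 calls for IL-1β in wild-type MEFs and 1 to 2 in clone A2.

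The replicate block raised the calls for IL-1β to 4 in wild-type MEFs, 2 in *Lkb1*-/- MEFs, 1 in clone A1 and 4 in clone A2, and to 1 (*Acta2*) in the difference of responses of clone A2 and *Lkb1*-/- MEFs. Over all genes it moved the IL-1β calls from 396 to 1629, 831 to 2601, 348 to 1684 and 995 to 3133, in the same order of genotypes. A replicate block within each genotype gave 4, 3, 3 and 6 calls, and 1 for that difference, where 2823, 3966, 2860, 4557 and 183 of all 17522 genes were called. Where the numbers did not meet the pairing rule, the block added *Tpm2* in untreated *Lkb1*-/- against wild-type MEFs (FDR = 0.0114) and in A1 against wild-type (FDR = 0.0426), and *Acta2* in untreated A1 against *Lkb1*-/- MEFs (log2 fold change 0.52, FDR = 0.000939). Counts under about 10 per library limit what can be said of *Myh11*, *Des*, *Actg2* and *Lmod1*, and of *Cnn1* in wild-type MEFs, where it had 9 to 14 counts in untreated and 3 to 5 in stimulated libraries.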
